A study of Mus musculus with 6 samples.

Results

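The immunoglobulin genes of mouse liver were described here, that is, the rows for the constant regions (C) and for the variable (V), diversity (D) and joining (J) segments of the heavy chain (*Igh*), the kappa light chain (*Igk*) and the lambda light chain (*Igl*). They were chosen by gene symbol and gene biotype alone, which gave 259 of the 45777 genes in the table. There were 142 *Igh*, 108 *Igk* and 9 *Igl* genes, and by class 12 C, 225 V, 12 J and 10 D genes. RNA was sequenced from the livers of 3 control mice (WT, *Pak4* flox/flox) and 3 liver-specific knockout mice (LKO, Alb-Cre; *Pak4* flox/flox). All 6 were C57BL/6 males aged 8 weeks, carried the floxed *Pak4* alleles and had fasted for 24 h. The Alb-Cre transgene drives Cre from the albumin promoter, which is active in hepatocytes, and *Pak4* loses its floxed part there. Each mouse gave 1 library of whole liver, and the p-values measure the spread between these mice.

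Antibodies are made by B lymphocytes and, in large amounts, by the plasma cells that B cells become. Each B cell joins a V, a D and a J segment for its heavy chain and a V and a J segment for its light chain, and the joined exon is spliced to a constant region. The heavy-chain constant region sets the isotype: *Ighm* encodes IgM, *Ighd* IgD, *Ighg1*, *Ighg2b*, *Ighg2c* and *Ighg3* the IgG subclasses, *Igha* IgA and *Ighe* IgE. In the liver such RNA comes from B cells and plasma cells in the tissue and in the blood it holds, whereas hepatocytes handle antibodies as cargo, for example by carrying IgA into bile. In bulk liver, fewer cells of a type and less RNA per cell cannot be told apart.

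The *Igh* genes lie on chr12:113256204-116009954, the *Igk* genes on chr6:67555636-70726754 and the *Igl* genes on chr16:19061752-19260844 (GRCm38.p6, the assembly of mm10). The hinge joins the Fab arms of IgG to its Fc part, and its cysteines link the heavy chains. It is shown because the IgG constant regions fell most. The hinge exons on the minus strand of chromosome 12 are shown with the cysteine codons in capitals.
Ighg1, chr12:113329844-113329882: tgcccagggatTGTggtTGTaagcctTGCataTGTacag
Ighg2b, chr12:113307261-113307326: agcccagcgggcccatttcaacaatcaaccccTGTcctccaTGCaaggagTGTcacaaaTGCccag
Ighg2c, chr12:113288263-113288325: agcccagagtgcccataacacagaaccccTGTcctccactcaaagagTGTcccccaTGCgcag
Ighg3, chr12:113360529-113360576: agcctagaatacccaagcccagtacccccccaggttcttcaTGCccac
The exons of *Ighg1* and *Ighg2b* hold 4 cysteine codons each, that of *Ighg2c* holds 3 and that of *Ighg3* holds 1. Over the whole coding sequence, *Ighg2b* and *Ighg2c* shared 87.6% of aligned bases and *Ighg1* and *Ighg2c* 77.2%.

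The joining segments follow, because all 4 heavy-chain J segments were lower in LKO mice. The codons of the conserved WGXG motif (Trp-Gly-any-Gly) are in capitals, and the segments lie on the minus strand of chromosome 12.
Ighj1, chr12:113429781-113429833: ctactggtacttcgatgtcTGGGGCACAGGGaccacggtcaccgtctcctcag
Ighj2, chr12:113429468-113429515: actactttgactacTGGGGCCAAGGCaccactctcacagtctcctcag
Ighj3, chr12:113429085-113429132: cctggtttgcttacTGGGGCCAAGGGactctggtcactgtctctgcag
Ighj4, chr12:113428514-113428567: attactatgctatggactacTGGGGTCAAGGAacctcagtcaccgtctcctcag
Of the V segments, *Ighv1-81*, *Igkv8-21* and *Iglv1*, with the most counts of their chains, are shown beside *Ighv9-3* and *Igkv6-17*. Their last 60 coding bases are given, with the last cysteine codon in capitals. The bases after that codon begin the third complementarity-determining region, where the V segment is joined.
Ighv1-81, chr12:115920279-115920338, minus strand: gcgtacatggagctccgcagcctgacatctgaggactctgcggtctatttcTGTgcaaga
Ighv9-3, chr12:114140692-114140751, minus strand: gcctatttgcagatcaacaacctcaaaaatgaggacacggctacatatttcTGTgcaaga
Igkv8-21, chr6:70314895-70314954, minus strand: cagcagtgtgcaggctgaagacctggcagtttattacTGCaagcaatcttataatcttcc
Igkv6-17, chr6:70371934-70371993, plus strand: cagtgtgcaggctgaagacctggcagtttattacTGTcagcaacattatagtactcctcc
Iglv1, chr16:19085017-19085076, minus strand: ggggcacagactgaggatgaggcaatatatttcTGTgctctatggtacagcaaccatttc
Many V segments are near copies of others. The closest relative of *Ighv1-81* was *Ighv1-85* (92.9% of aligned coding bases), that of *Igkv8-21* was *Igkv8-30* (92.6%) and that of *Igkv5-43* was *Igkv5-45* (98.6%). How reads that fit several segments were counted is not given in the sources used here, so the division of counts between such relatives is uncertain.

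Total counts per mouse ran from 45934632 to 59576437, and the scaling between genotypes was unequal, with TMM factors of 1.28 to 1.43 in WT and 0.639 to 0.816 in LKO mice. Scaling by total counts instead moved the median log2 fold change of all genes from −0.04 to −0.90. Scaled values are therefore given beside read counts and beside shares within a library, which need no scaling. *Pak4* had read counts of 268, 210 and 271 in WT and of 85, 52 and 149 in LKO mice, and its log2 fold change was −0.71 ± 0.31 (SE), with an adjusted p of 0.101 in edgeR's quasi-likelihood test. Its scaled levels overlapped, since LKO mouse 3 (3.22 CPM, read counts scaled by TMM to a common library size) lay just above WT mouse 2 (3.21). Without LKO mouse 3 it fell by 1.08 on the log2 scale and passed the test (adjusted p = 0.0152), and with total-count scaling of all 6 mice it was at −1.54 (adjusted p = 0.0056). Albumin, apolipoprotein and other hepatocyte genes were abundant in all livers, as the tissue label states, but at unequal levels: 10 listed genes summed to 46766 to 49659 CPM in WT and to 120546 to 138360 in LKO mice. Albumin alone had means of 21079 CPM in WT and 69388 in LKO mice, so the sum follows the most abundant genes. The list did not move as a whole, with 1 of 10 genes lower and 5 higher, against 20.5% and 19.6% of all tested genes. The part of these differences in the results was not tested.

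Immunoglobulin RNA was lower in all 3 LKO livers than in any WT liver. The 259 genes summed to 16687, 15814 and 11173 counts in the WT livers and to 1197, 1348 and 1967 in those of LKO mice, so that the lowest WT sum lay far above the highest LKO sum. After TMM scaling the sums were 211 ± 37.9 CPM in WT and 36.1 ± 7.98 in LKO livers (mean ± SD of 3 mice), a 5.85-fold difference. Relative to total counts the difference was 10.8-fold, and in TPM, which also divides by gene length, it was 14.3-fold. By chain the sums differed in size. Heavy-chain genes were 9.26-fold lower on the TMM scale (144 ± 27.1 against 15.6 ± 2.15), and kappa genes 3.81-fold lower (62.8 ± 14.7 against 16.5 ± 5.07). Lambda genes summed to 4.68 ± 0.198 in WT and 4.08 ± 0.828 in LKO mice, and these ranges overlapped, although relative to total counts they did not, with a 2.11-fold difference.

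Of the 259 genes, 65 had no count in any mouse and 194 had counts. Of these 89 passed the filter, which left out genes at 0 in more than 1 of the 6 mice, and 105 did not. Among the 89 tested genes 28 fell in LKO mice (31.5%) and 2 rose, at an adjusted p under 0.05, while 59 did not pass the test. Of all 18636 tested genes 20.5% fell and 19.6% rose. With total-count scaling 51.4% of all tested genes fell and 6.26% rose, and 40 immunoglobulin genes fell and 0 rose. The median log2 fold change was −0.76 over the 89 tested genes and −0.04 over all tested genes. By chain, 19 of 42 tested *Igh* genes fell and 2 rose, 9 of 38 *Igk* genes fell and 0 of 9 *Igl* genes passed in either direction. By class, 5 of 10 constant regions, 5 of 12 J segments and 18 of 67 V segments fell. A filter of this kind also keeps out genes that are present in one genotype alone: 33 immunoglobulin genes had counts only in WT mice and 15 only in LKO mice, against 2504 and 1884 of the 25982 genes with counts.

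**Figure D1:**
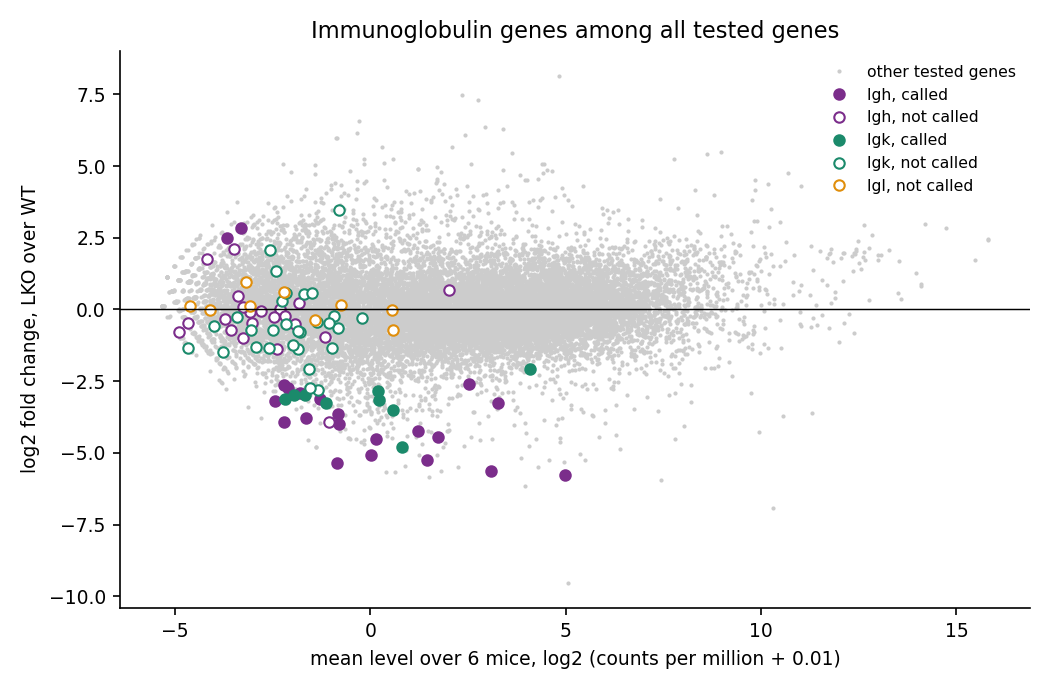
The log2 fold change from WT to LKO (vertical axis) is plotted against the mean level over the 6 mice on a log2 scale of CPM (horizontal axis) for all 18636 tested genes. Immunoglobulin genes are coloured by chain, filled where the adjusted p was under 0.05, and the 28 filled points below 0 lie in *Igh* and *Igk*, with 2 above 0 in *Igh*.

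Among the heavy-chain constant regions, those of IgG fell most and that of IgA did not pass the test. *Ighg2c* (Entrez gene 404711), the leading isotype of WT livers, had 5716, 3620 and 3475 counts in WT and 26, 64 and 48 in LKO mice. Every LKO value was below every WT value, and the log2 fold change was −5.76 ± 0.39 (SE; adjusted p = 0.000182), or 53.3-fold in mean CPM. *Ighg1* had 586, 2090 and 670 counts in WT and 19, 11 and 12 in LKO mice. WT mouse 2 stood above the other WT mice here, and the log2 fold change of −5.62 ± 0.64 (adjusted p = 0.000478) became −4.75 without that mouse (adjusted p = 0.00103). *Ighg2b* had 1611, 1412 and 601 counts in WT and 65, 67 and 97 in LKO mice. The groups did not overlap, and the log2 fold change was −3.25 ± 0.36 (adjusted p = 0.000447). *Ighg3* had 123, 26 and 68 counts in WT and 0 in each LKO mouse. Against a floor of 3 counts per library it was at least 14.0-fold lower in LKO mice, and 0 of the 1280 heavy-chain constant-region counts of the LKO mice allows a share of up to 0.234%. That share is 3 counts over those pooled from the LKO mice. It covers counting error only, not the spread between mice. *Ighg3* did not pass the filter, and without the filter its adjusted p was 0.0014.

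*Ighm*, the constant region of the first isotype a B cell makes, had 879, 378 and 799 counts in WT and 88, 34 and 85 in LKO mice. The groups did not overlap, and it fell with a log2 fold change of −2.61 ± 0.37 (adjusted p = 0.00112). *Igha*, in contrast, did not pass the test. It had 392, 70 and 192 counts in WT and 176, 182 and 267 in LKO mice, and the groups overlapped, with WT mouse 1 highest and WT mouse 2 lowest of all in read counts. Its log2 fold change was 0.70 ± 0.48 (adjusted p = 0.284) and turned to −0.16 with total-count scaling, also without passing the test. It was at 1.33 without WT mouse 1 (adjusted p = 0.0559) and at 0.26 without WT mouse 2 (adjusted p = 0.575). *Ighd*, which naive B cells make together with *Ighm*, had 16, 10 and 26 counts in WT and 20, 0 and 19 in LKO mice, which gave no detectable difference at this depth (adjusted p = 0.856). *Ighe* was at 0 in all 6 mice. In TPM, which can be compared between genes, *Ighg2c* stood at 120 ± 26.6 and *Igha* at 4.85 ± 3.30 in WT livers. In LKO livers *Ighg2c* stood at 0.724 ± 0.287 and *Igha* at 2.76 ± 0.708, so that their order was exchanged.

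**Figure D2:**
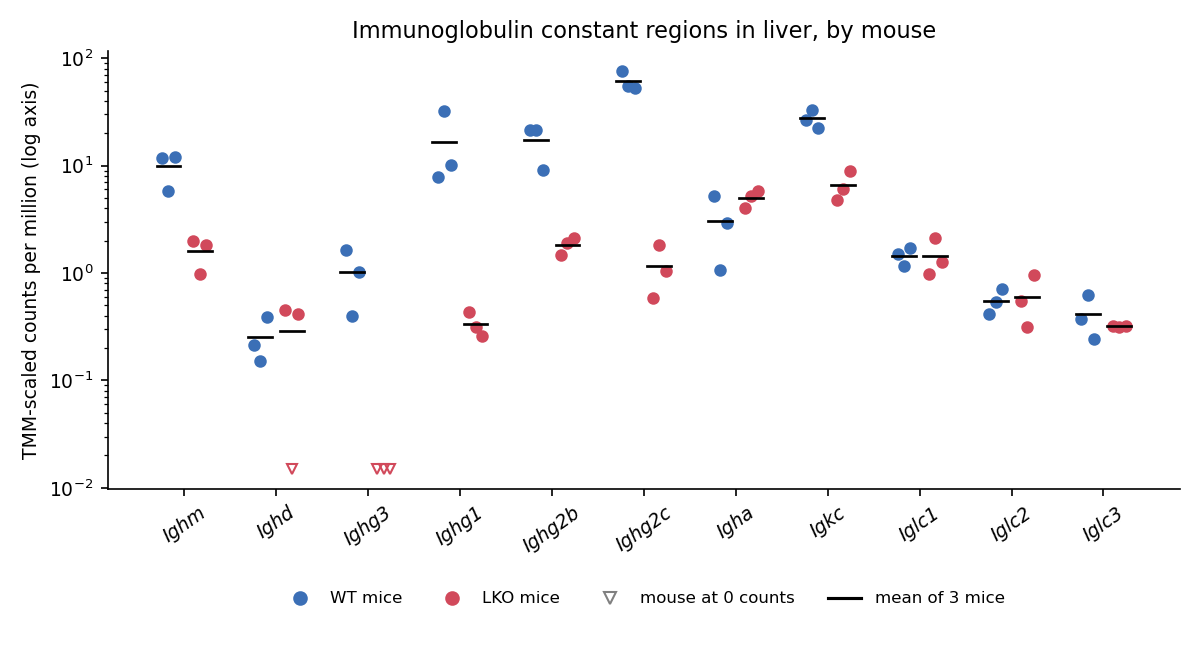
TMM-scaled CPM (log axis) of 11 constant-region genes in each of the 3 WT (blue) and 3 LKO mice (red), with the mean of 3 mice as a bar and open triangles for mice at 0. The red points lie below all blue points for *Ighm*, the IgG subclasses and *Igkc*, and the red and blue points overlap for *Igha*, *Ighd* and the lambda genes.

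The make-up of the remaining constant-region RNA thus differed between genotypes, in shares that do not depend on scaling between libraries. IgG subclasses together held 86.2, 94.0 and 82.6% of the heavy-chain constant-region counts in WT livers and 27.9, 39.7 and 29.7% in LKO mice. *Igha* held 4.20, 0.92 and 3.29% in WT and 44.7, 50.8 and 50.6% in LKO mice. Neither share overlapped between the genotypes, with means of 87.6 ± 5.83 against 32.4 ± 6.32% for IgG and of 2.81 ± 1.70 against 48.7 ± 3.49% for *Igha*. The share of *Ighm* was 9.37 ± 4.37% in WT and 16.0 ± 6.42% in LKO mice, and its ranges overlapped. Of the IgG subclasses, *Ighg2b* held overlapping shares of the heavy-chain counts (15.4 ± 4.44 against 17.9 ± 1.19%), whereas *Ighg2c* held 56.2 ± 7.47% in WT and 11.2 ± 5.92% in LKO mice. Within the IgG counts alone, *Ighg2b* held 20.05, 19.8 and 12.5% in WT and 59.1, 47.2 and 61.8% in LKO mice, and *Ighg2c* held 71.1, 50.6 and 72.2% in WT and 23.6, 45.1 and 30.6% in LKO mice. Neither of these shares overlapped, that of *Ighg2b* being higher and that of *Ighg2c* lower in LKO mice, where they rest on 110 to 157 IgG counts per mouse. The shares of heavy-chain counts rest on 5831 to 9323 counts in WT and on 358 to 528 in LKO mice. All are proportions of a whole, so that a lower share of one isotype raises the others.

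**Figure D3:**
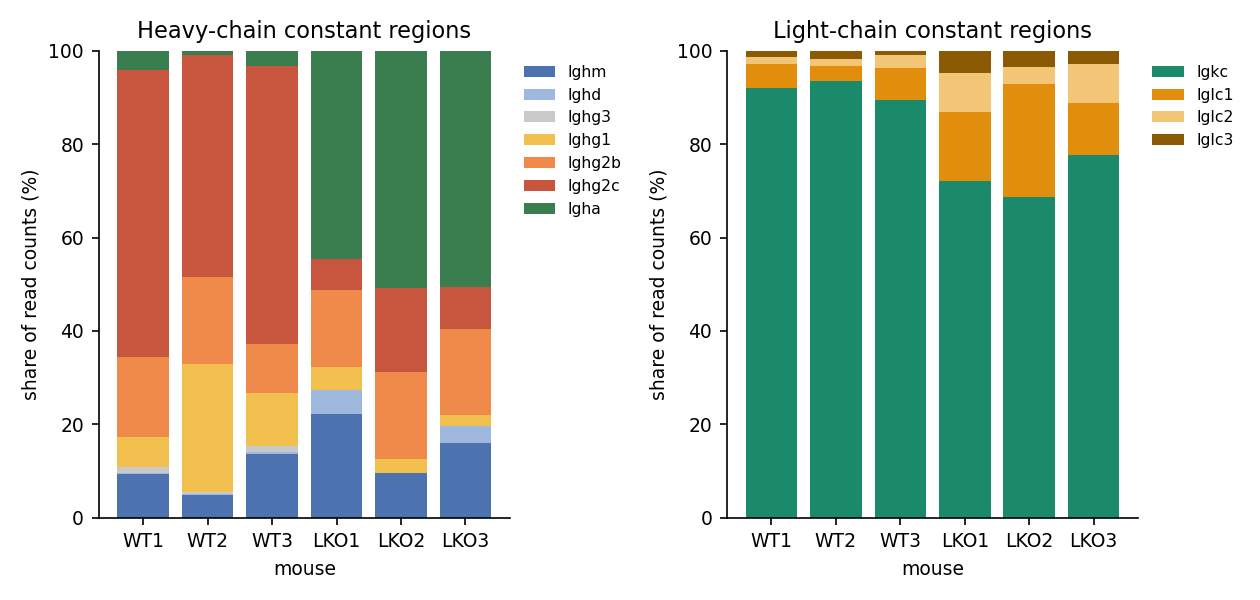
Share of read counts (%) of each heavy-chain (left) and light-chain constant region (right) in each mouse. The *Igha* segment takes 0.92 to 4.20% of the bar in WT and 44.7 to 50.8% in LKO mice, and *Igkc* takes 89.5 to 93.5% in WT and 68.7 to 77.8% in LKO mice.

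Of the light-chain constant regions that of kappa fell, and those of lambda did not pass the test. *Igkc*, the single kappa constant region, had 1990, 2176 and 1496 counts in WT and 209, 211 and 409 in LKO mice. It fell in every LKO mouse, with a log2 fold change of −2.07 ± 0.26 (adjusted p = 0.000648). *Iglc1*, a lambda constant region, had 111, 76 and 112 counts in WT and 43, 74 and 58 in LKO mice. After scaling these ranges overlapped, and the log2 fold change was −0.01 ± 0.35 (adjusted p = 0.992). *Iglc2* (log2 fold change 0.14 ± 0.46, adjusted p = 0.828) and *Iglc3* (−0.37 ± 0.44, adjusted p = 0.535) did not pass the test either, and their coding sequences share 96.5% of bases, so that their counts are uncertain apart. With total-count scaling *Iglc1* passed the test at a log2 fold change of −0.90 (adjusted p = 0.0396). The kappa share of light-chain constant-region counts, free of that choice, was 92.1, 93.5 and 89.5% in WT and 72.1, 68.7 and 77.8% in LKO mice and did not overlap. Light chains as a whole held 21.5 ± 2.41% of all constant-region counts in WT and 46.2 ± 3.75% in LKO mice.

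J segments are short and collected few counts, yet all 4 heavy-chain J segments fell. Of the 12 tested J segments of all chains 5 fell (41.7%), against 20.5% of all tested genes. *Ighj3*, which fell most, had 52, 39 and 30 counts in WT and 1, 2 and 2 in LKO mice, with a log2 fold change of −3.78 ± 0.51 (adjusted p = 0.000921). *Ighj2* had 51, 63 and 33 counts in WT and 5, 2 and 3 in LKO mice (−3.13 ± 0.49, adjusted p = 0.00172). For *Ighj4* the log2 fold change was −2.90 ± 0.62 (adjusted p = 0.00685), and for *Ighj1* it was −2.64 ± 0.75 (adjusted p = 0.0228). Without LKO mouse 1 they were −3.65 and −2.05, and *Ighj1* was at −3.69 without LKO mouse 3. The call of *Ighj1* was lost without WT mouse 1 (adjusted p = 0.0646) and without LKO mouse 2 (adjusted p = 0.0659). Of the 5 kappa J segments only *Igkj2* passed the test, with 33, 40 and 37 counts in WT and 1, 6 and 1 in LKO mice (−2.97 ± 0.69, adjusted p = 0.00974, and −4.47 without LKO mouse 2). None of the 3 lambda J segments passed it. The 10 D segments had 2 counts between them, both in LKO mice, and were not tested. J segments were named after their values had been seen.

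V segments bind antigen, and the same germline segment in many counts can come from many cells or from a few that make much RNA. All 5 *Igh* V segments with the most counts over the 6 mice fell in LKO livers. That ranking follows the WT mice, which held 6607 *Igh* V counts against 633 in LKO mice. It thus favours segments that are high in WT mice, and their falls are given as a description. *Ighv1-81* had 624, 487 and 216 counts in WT and 15, 0 and 23 in LKO mice, and its log2 fold change was −4.43 ± 0.72 (adjusted p = 0.00203), or −5.09 without LKO mouse 3. *Ighv9-3* had 480, 491 and 123 counts in WT and 3, 7 and 7 in LKO mice (−5.24 ± 0.65, adjusted p = 0.000648). WT mouse 3 was the lowest of the controls for both segments, and still above all LKO mice. *Ighv1-64* was the most even of them, with 348, 296 and 271 counts in WT and 12, 8 and 9 in LKO mice (−4.24 ± 0.28, adjusted p = 0.000168). *Ighv8-12* had 221, 98 and 122 counts in WT and 3, 6 and 2 in LKO mice (−4.52 ± 0.53, adjusted p = 0.000549, and −5.19 without LKO mouse 2). *Ighv1-7* had 87, 94 and 213 counts in WT and 3, 0 and 4 in LKO mice (−5.08 ± 0.72, adjusted p = 0.00109).
*Ighv1-76*, which is less abundant, had the largest fall of any V segment that passed the test. Its counts were 95, 42 and 85 in WT and 0, 1 and 2 in LKO mice, with a log2 fold change of −5.35 ± 0.69 (adjusted p = 0.000755), or −6.16 without LKO mouse 3. Together 11 of 32 tested *Igh* V segments fell (34.4%), against 20.5% of all tested genes. The 2 genes that rose were also *Igh* V segments, at the lower edge of the counts. *Ighv3-6* had 2, 2 and 0 counts in WT and 6, 3 and 6 in LKO mice (2.49 ± 0.71, adjusted p = 0.0234). *Ighv1-19* had 0, 3 and 1 counts in WT and 4, 9 and 6 in LKO mice (2.85 ± 0.83, adjusted p = 0.0254, and 4.03 without WT mouse 2). Neither rise passed the test when genes at 0 in more mice were let in (adjusted p = 0.17 and 0.119) or with total-count scaling (adjusted p = 0.085 and 0.0633). With WT mouse 1 left out they stood at adjusted p = 0.0504 and 0.0573, and *Ighv3-6* also missed the threshold without LKO mouse 1 (0.0586) or LKO mouse 3 (0.0522) and *Ighv1-19* without WT mouse 3 (0.0761) or LKO mouse 2 (0.0801), all in edgeR's test.

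Among kappa V segments, the one with the most counts over the 6 mice was seen in WT livers alone. WT mice held 7038 kappa V counts against 1192 in LKO mice, so this ranking too favours segments that are high in WT mice. *Igkv8-21* had 278, 232 and 211 counts in WT mice and 0 in all 3 LKO mice. It held 10.2% of the kappa V counts of the WT mice. In LKO mice 0 of 1192 kappa V counts allows a share of up to 0.252%, and the level was at least 47.8-fold lower at a floor of 3 counts per library. The share is 3 counts over those pooled from the LKO mice. It covers counting error only, not the spread between mice. *Igkv8-21* was left out by the filter, and without the filter its adjusted p was 8.37e-05. *Igkv4-70*, picked out after its values had been seen, likewise had 111, 121 and 74 counts in WT and 0 in all LKO mice, at least 20.3-fold lower. Its closest relative is *Igkv4-59* (97.4% of aligned coding bases), which had 13, 6 and 0 counts in WT and 3, 92 and 19 in LKO mice. Summed, the pair had 124, 127 and 74 counts in WT and 3, 92 and 19 in LKO mice and overlapped, with 1.57 ± 0.418 against 1.04 ± 1.40 CPM. *Igkv8-21* summed with *Igkv8-30* had 345, 260 and 232 counts in WT and 10, 17 and 22 in LKO mice and did not overlap, at a 10.2-fold difference in mean CPM.
*Igkv6-17*, of another kappa family, had 232, 259 and 202 counts in WT and 8, 3 and 4 in LKO mice (−4.79 ± 0.38, adjusted p = 0.000215). *Igkv10-94* had 118, 323 and 110 counts in WT and 7, 8 and 15 in LKO mice (−3.50 ± 0.58, adjusted p = 0.0021). *Igkv5-43* had 56, 294 and 67 counts in WT and 10, 7 and 12 in LKO mice (−3.16 ± 0.74, adjusted p = 0.0104). WT mouse 2 was highest for both of these, as for *Ighg1*, and without it the log2 fold changes were −2.78 and −1.95, with adjusted p of 0.00436 and 0.0128. *Igkv6-15* had 156, 107 and 147 counts in WT and 2, 9 and 24 in LKO mice (−2.83 ± 0.60, adjusted p = 0.00658, and −3.77 without LKO mouse 3). In all, 7 of 32 tested kappa V segments fell (21.9%) and 0 rose, against 20.5% and 19.6% of all tested genes. The share of falls was thus close to that of all genes. *Igkv4-59* went the other way in 1 liver, with 13, 6 and 0 counts in WT and 3, 92 and 19 in LKO mice. It did not pass the test (3.46 ± 1.27, adjusted p = 0.0596), and the value rested on LKO mouse 2, without which it was 1.40 (adjusted p = 0.376). It passed without LKO mouse 1 (4.02, adjusted p = 0.0198), and it was at 4.40 without WT mouse 1 and at 2.87 without WT mouse 3, not passing in either case.
The 3 lambda V segments did not pass the test. *Iglv1* had 155, 105 and 123 counts in WT and 34, 50 and 55 in LKO mice and did not overlap after scaling, at −0.71 ± 0.31 (adjusted p = 0.1). It passed as lower with total-count scaling (−1.60, adjusted p = 0.00229) and with gene-length offsets (−1.39, adjusted p = 0.00813). *Iglv2* had 18, 16 and 0 counts in WT and 11, 6 and 15 in LKO mice (0.62 ± 0.88, adjusted p = 0.607). *Iglv3* had 3, 7 and 4 counts in WT and 6, 3 and 8 in LKO mice (0.94 ± 0.54, adjusted p = 0.197).

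The spread of counts over V segments differed as well. In WT mice the 5 leading *Igh* V segments of each mouse held 60.2 to 69.6% of its *Igh* V counts, and in LKO mice 26.5 to 31.4%. The leading segment alone held 17.9 to 24.6% in WT and 6.63 to 8.78% in LKO mice. The effective number of *Igh* V segments (inverse Simpson index, the number of equally used segments that would give the same evenness) was 7.77 to 10.6 in WT and 32.5 to 37.1 in LKO mice. LKO mice had fewer counts to spread, 175 to 262 against 1514 to 2553. With every library thinned to 175 counts, 27.8 to 33.0 segments would be seen in WT and 44.0 to 48.8 in LKO mice, whereas 49 to 61 and 44 to 53 were seen before thinning. Kappa V segments did not separate in this way. Their effective number was 18.2 to 20.6 in WT and 13.8 to 30.4 in LKO mice, with LKO mouse 2 the lowest of all. There *Igkv4-59* alone held 92 of 401 kappa V counts, or 22.9% (exact 95% binomial interval 18.9 to 27.4%, which covers counting error only). Without that mouse the mean share of the leading kappa segment in LKO mice was 8.93% in place of 13.6%.

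Segment usage was more alike among WT mice than between genotypes. For the 84 *Igh* V segments with counts, Pearson's r of the shares ran from 0.767 to 0.95 for pairs of WT mice and from 0.352 to 0.555 for pairs of LKO mice, and from 0.142 to 0.519 across genotypes. For the 82 kappa V segments with counts it was 0.688 to 0.866, 0.284 to 0.627 and −0.0163 to 0.268. These values are across segments, which are not independent, and the lower counts of LKO mice also lower r, so they are given as a description. By family, *Ighv9* segments held 8.12 to 19.7% of *Igh* V counts in WT livers and 2.67 to 4.59% in LKO livers. *Ighv14* segments held 0 to 0.394% and 2.86 to 7.65%, and *Ighv6* segments 0.315 to 0.727% and 2.29 to 4.20%. Among kappa families, *Igkv6* segments held 20.8 to 27.7% in WT and 11.7 to 15.4% in LKO mice, and *Igkv8* segments 14.1 to 20.01% and 6.95 to 8.48%. *Igkv1* segments held 2.43 to 7.25% in WT and 9.73 to 17.4% in LKO mice. The families with ranges that do not overlap were picked after their values had been seen.

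**Figure D4:**
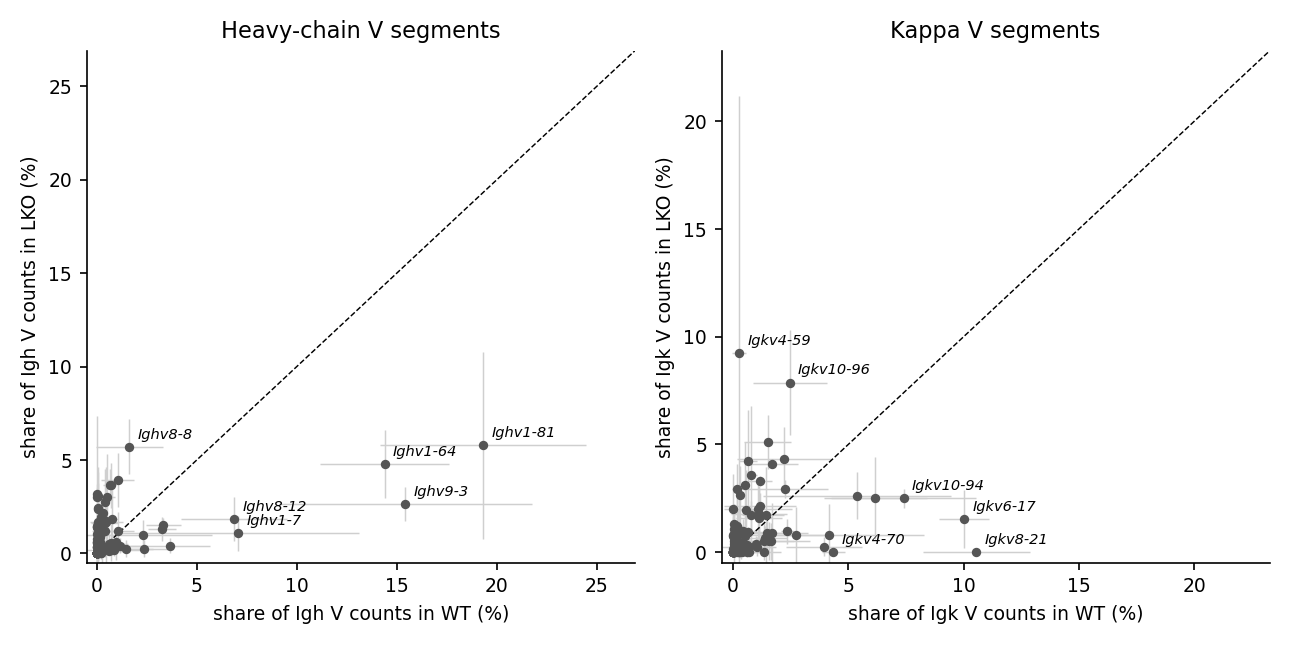
Mean share (%) of each *Igh* (left) and kappa V segment (right) in WT mice (horizontal axis) and LKO mice (vertical axis), with SD bars over 3 mice and a dashed line of equal shares. The leading segments of WT mice lie far below the line, *Igkv8-21* at 0, and *Igkv4-59* stands high with a wide bar because 92 of its counts came from LKO mouse 2.

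The cells that could hold this RNA were followed by lists of marker genes. Of all tested genes 20.5% fell and 19.6% rose, and the count of each list is to be set beside these shares. Of the plasma cell list, 8 of 14 tested genes fell and 0 rose, with a median log2 fold change of −1.17. The list summed to 421 to 464 CPM in WT and 306 to 431 in LKO mice and overlapped. Bulk liver RNA does not show which cells the RNA of each listed gene came from, so the 8 falls need not all be of plasma cells. Among the abundant genes of the list, *Xbp1*, *Sdc1* and *Ell2* had means of 186, 112 and 49.1 CPM in WT and 105, 134 and 92.6 in LKO mice. A further abundant gene, among the 8 that fell, is not named. *Mzb1* was at 1.65 and 0.268 CPM, so the sum follows the abundant genes of the list. *Mzb1*, which encodes a chaperone of the endoplasmic reticulum that helps assemble immunoglobulin in B cells and plasma cells, had 119, 101 and 119 counts in WT and 18, 7 and 9 in LKO mice. The groups did not overlap, and it fell with a log2 fold change of −2.60 ± 0.38 (adjusted p = 0.00127). *Irf4*, a transcription factor that plasma cells need, had 116, 82 and 80 counts in WT and 24, 11 and 11 in LKO mice (−1.86 ± 0.39, adjusted p = 0.00596). *Derl3* and *Pou2af1* fell with log2 fold changes of −1.66 ± 0.45 (adjusted p = 0.0186) and −1.54 ± 0.50 (adjusted p = 0.0384). Neither call held throughout when each mouse was left out in turn. That of *Derl3* was lost without WT mouse 1 (0.062) or LKO mouse 1 (0.0542). The call of *Pou2af1* was lost with any mouse but LKO mouse 3 left out (0.0588 to 0.115 in edgeR's test). In those fits its log2 fold change stayed between −1.69 and −1.28. Without LKO mouse 3 *Pou2af1* was at −2.29. *Xbp1*, a factor of secretory cells that hepatocytes also express, fell by 0.82 on the log2 scale (adjusted p = 0.0253), and this call was lost without WT mouse 2, LKO mouse 1 or LKO mouse 3 (0.0604 to 0.0712). *Prdm1*, the gene of the plasma cell factor Blimp-1, did not pass the test (−0.89 ± 0.39, adjusted p = 0.103), although with total-count scaling it did (−1.80, adjusted p = 0.00474). *Sdc1*, which encodes the surface marker CD138 and had 4800 to 8570 counts per mouse, was at 0.26 ± 0.16 (adjusted p = 0.239). Its counts lay far above those of *Mzb1*, and bulk liver does not show which cells they came from. *Ell2* (0.91 ± 0.43, adjusted p = 0.125), *Eaf2* (0.64 ± 0.41, adjusted p = 0.251) and *Tnfrsf13b* (−0.05 ± 0.47, adjusted p = 0.936) did not pass the test either. *Tnfrsf17*, the receptor BCMA of plasma cells, was not tested, with 0 counts in all WT mice and 0, 4 and 7 in LKO mice. These 5 genes were named after their values had been seen.

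*Jchain*, whose product joins IgA and IgM into polymers, did not pass the test. It had 1842, 1568 and 1099 counts in WT and 654, 733 and 1068 in LKO mice, overlapped after scaling and had a log2 fold change of −0.15 ± 0.22 (adjusted p = 0.624). With total-count scaling it was at −1.03 and passed the test (adjusted p = 0.00578). Of the genes for receptors of antibodies, *Pigr*, which carries polymeric IgA and IgM into bile, had 15777, 17214 and 18379 counts in WT and 12935, 11112 and 14432 in LKO mice (0.30 ± 0.16, adjusted p = 0.187). With total-count scaling its direction turned and it passed as lower (−0.57, adjusted p = 0.0202). *Fcgrt*, the neonatal Fc receptor that protects IgG from breakdown, had 9887, 7698 and 8552 counts in WT and 3476, 2518 and 3591 in LKO mice and fell (−0.73 ± 0.13, adjusted p = 0.00356). *Fcgr2b*, the inhibitory receptor for IgG, rose (0.77 ± 0.15, adjusted p = 0.00384), but its log2 fold change was −0.09 with total-count scaling and did not pass the test (adjusted p = 0.715). Over the list 1 of 9 tested genes fell and 3 rose, the others being *Fcgr4* and *Fcamr*, against 20.5% and 19.6% of all tested genes.

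Few genes of the B cell list passed the test, against 20.5% lower and 19.6% higher over all tested genes. Of 13 tested genes 1 fell (*Cr2*) and 1 rose (*Cd37*), the median log2 fold change was −0.06, and the summed list ran from 9.25 to 12.2 CPM in WT and from 8.06 to 11.6 in LKO mice. *Ms4a1*, which encodes CD20, had 79, 36 and 36 counts in WT and 92, 23 and 54 in LKO mice (0.86 ± 0.48, adjusted p = 0.186). *Cd79a*, a signalling chain of the B cell receptor, had 27, 10 and 19 counts in WT and 7, 3 and 14 in LKO mice (−0.52 ± 0.56, adjusted p = 0.489). These are low counts, and differences of this size were not detectable at this depth. *Cr2*, a complement receptor, had 59, 175 and 49 counts in WT and 13, 0 and 2 in LKO mice (−3.55 ± 0.94, adjusted p = 0.017). Without WT mouse 2 it was at −2.70 and missed the threshold (adjusted p = 0.0657), and without LKO mouse 1 it was at −5.72. Of 8 genes for early B cells and V(D)J recombination, 4 were at 0 in all mice, and the only gene tested, *Dntt*, did not pass.

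Markers of other cells that livers hold moved with the genotype in both directions, against 20.5% lower and 19.6% higher over all tested genes. T and NK cell genes summed to 12.1 to 17.6 CPM in WT and 7.16 to 10.7 in LKO mice, with 4 of 13 tested genes lower (*Cd4*, *Cd8a*, *Cd8b1* and *Nkg7*) and 1 higher (*Klrb1c*). *Cd4* had 164, 97 and 163 counts in WT and 9, 13 and 17 in LKO mice (−2.70 ± 0.37, adjusted p = 0.00102). *Klrb1c*, a receptor of NK cells, had 11, 28 and 15 counts in WT and 59, 35 and 83 in LKO mice (2.37 ± 0.46, adjusted p = 0.0045). No other gene of the list was called higher, and *Nkg7* was at −3.37 ± 0.71 (adjusted p = 0.00664), so *Klrb1c* does not stand for NK cells as a whole. Kupffer cell and monocyte genes summed to 282 to 421 in WT and 449 to 874 in LKO mice, with 1 of 10 lower and 4 higher. Neutrophil genes summed to 1.02 to 6.30 and 13.3 to 27.8, with 3 of 3 tested genes higher. The list holds 8 genes, and those not tested had at most 34 counts each over the 6 mice and overlapped between genotypes. *S100a8*, an abundant protein of neutrophils, had 30, 129 and 135 counts in WT and 208, 376 and 425 in LKO mice (2.49 ± 0.56, adjusted p = 0.00889). Genes of red blood cells summed to 192 to 324 in WT and 879 to 1635 CPM in LKO mice, with 1 of 6 lower and 2 higher. The other 3 did not pass the test, and the sum follows the most abundant genes of the list. The part of these other cells in the lower immunoglobulin RNA was not tested.

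**Figure D5:**
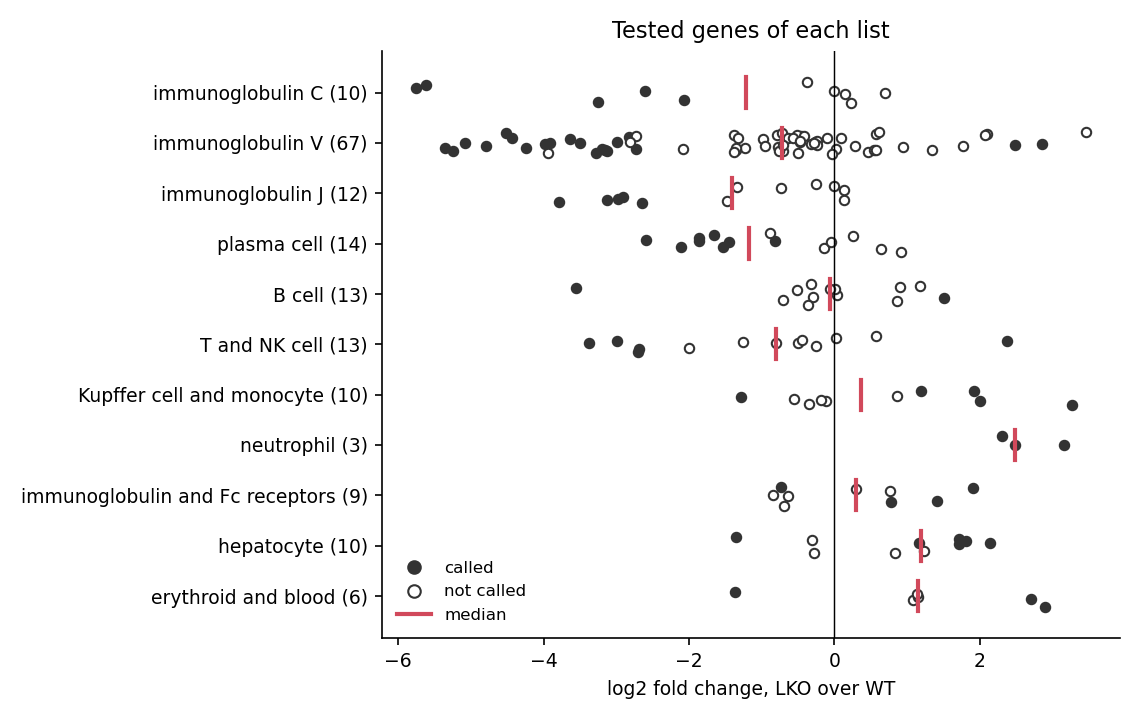
Log2 fold change from WT to LKO mice for each tested gene of the immunoglobulin classes and of the marker lists, filled where the adjusted p was under 0.05, with the median as a red bar and the number of tested genes in brackets. The medians lie at −1.17 for plasma cell genes, −0.06 for B cell genes and 2.49 for the 3 tested neutrophil genes.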

How the data were processed

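RNA sequencing covered liver of 3 WT and 3 LKO mice. The study's methods describe 0.5 μg of RNA, removal of rRNA and a stranded total RNA kit, whereas the labels give 1 μg and a kit that selects mRNA. The submitters' processing notes list HISAT2 2.1.0, Bowtie2 2.3.4.1, StringTie 2.1.3b and the mm10 genome. Whether strand was used in counting is not given in the sources used here. The authors deposited read counts per gene without normalization, and FPKM and TPM values per gene beside them. StringTie derives counts from coverage, and segments recombined and mutated in B cells can lose reads against the germline genome. FPKM served only for relative gene length.

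Counts were tested with edgeR 4.0.16 (TMM, quasi-likelihood test, two-sided, Benjamini-Hochberg adjustment over 18636 genes) after genes at 0 in more than 1 of the 6 mice were left out, and every adjusted p in the text is from this test unless another scaling, filter, fit or left-out mouse is named beside it. DESeq2 1.42.0, limma 3.58.1 on log2(TPM + 1) and log2(TPM + 0.1), other scalings and filters, gene-length offsets and leaving out each mouse were alternatives. Scaled levels are CPM after TMM. The procedures were tested on simulated data. Sums and shares over genes have no test. Positions are those of RefSeq for GRCm38.p6, matched for all 259 genes, and sequences are coding sequence of GENCODE on GRCm38, matched by symbol for 247. Another 130 pseudogene rows of these loci, with 5 to 25 counts per mouse, were not used.

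The genes named are constant regions with at least 10 counts, the 5 V segments with most counts for each of *Igh* and *Igk* and 3 for *Igl*, the 5 largest rises and falls among genes that passed (2 rises existed), *Pak4* and listed marker genes. J segments and others said to be so were named after their values were seen. The members, lists and tests were chosen with earlier results of these data known. Results for some single marker genes are not reported here, and these genes stay in the counts of their lists.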

Additional observations from a re-analysis of the deposited data

How the results depend on the processing

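All 28 falls kept their sign under all 18 alternatives, and 24 to 28 of the same genes were called lower in each. The 5 constant regions called lower were called in every alternative. Scalings that follow the total shifted all genes: 51.0% of all calls were lower with TMM, 89.1% with total counts and 96.7% with limma on TPM, so calls of lower genes there are not relative to the median gene. What depth limits are single V segments, with 175 to 262 *Igh* V counts in an LKO library. The cause of the changes below was not tested. Immunoglobulin genes called lower were 43 without a filter (194 tested), 56 with limma on log2(TPM + 1) and 59 with log2(TPM + 0.1), and 25 to 31 when a mouse was left out. Those called higher were 4 with exactTest, 1 with DESeq2, 1 with each limma fit, 1 with the replicate block, 0 with total counts, a mean of at least 10 counts, gene-length offsets or block and offsets together, and 0 to 3 when a mouse was left out. Constant regions called lower were 8 with each limma fit. Marker and receptor genes called lower were 17 in all and called higher 19, against 36 and 10 with total counts, 50 and 3 with log2(TPM + 1), 49 and 3 with log2(TPM + 0.1), and 12 to 17 and 16 to 23 when a mouse was left out. The log2 ratio of summed immunoglobulin RNA was −2.55, against −3.43 with total counts, −3.83 in TPM, −2.87 for constant regions alone, −2.08 for V segments alone, and −2.69 to −2.38 when a mouse was left out, with −2.44 without WT mouse 2 and −2.38 without LKO mouse 1. Over tested genes only, the leading V segment held 11.6% in place of 7.99% (*Igh*, LKO) and 18.0% in place of 11.6% (kappa, WT). *Klrb1c* and *S100a8* lost their calls with both limma fits. Genes changed sign as follows, all but *Fcgr2b* not called in the first place. With total counts, *Iglc2* was at −0.68, *Igha* at −0.16, *Ighd* at −0.55, *Iglv2* at −0.24, *Pigr* at −0.57 and *Fcgr2b* at −0.091. With limma on log2(TPM + 1), *Iglc2* was at −0.96, *Igha* at −0.49, *Ighd* at −0.29, *Iglv2* at −0.28, *Iglv3* at −0.11, *Ms4a1* at −0.17, *Pigr* at −1.22 and *Fcgr2b* at −0.73, and with log2(TPM + 0.1) at −1.46, −0.57, −1.10, −0.14, −0.38, −0.55, −1.24 and −0.75. With gene-length offsets *Iglc2* was at −0.48, *Ighd* at −0.075 and *Iglv2* at −0.016. *Iglc1*, at −0.01 with TMM, was at 0.021 with DESeq2, at 0.021 with its size factors, at 0.018 with a mean of at least 10 counts and at 0.072 with upper-quartile scaling. With a mouse left out, the ranges that crossed 0 were −0.38 to 0.21 for *Iglc1*, −0.35 to 0.44 for *Iglc2*, −0.64 to 0.020 for *Iglc3*, −0.22 to 0.77 for *Ighd* and −0.32 to 0.020 for *Jchain*.

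Mice of the same number were different animals, and the correlations of their deviations from the group means (0.05, −0.03 and −0.08) gave no sign of pairing. With the replicate number as a block, 27 immunoglobulin genes were called lower and 1 higher, *Ighj1* and *Ighv13-2* among the 28 lost their call (*Ighj1* at an adjusted p of 0.0604), *Pou2af1* lost its call (0.0655), and *Ighd* was at −0.13; with gene-length offsets in the same fit, 30 and 0 were called, *Iglc2* was at −0.59 and *Ighd* at −0.43.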
